A study of Mus musculus with 64 samples.

Results

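The hippocampus expresses a set of neuropeptide precursor genes, and 10 genes of this kind were followed here in wild type (WT) mice and in mice with a model of Angelman syndrome (AS), each given corticosterone (CORT) or vehicle. They are Npy, Sst, Cck, Vip, Penk, Pdyn, Crh, Tac2 and Pomc, which encode peptide precursors, and Vipr2, which encodes a receptor of the peptide VIP. The rows were taken by gene symbol from 55414 gene IDs of the acute table and 55573 of the continuous table, and all 10 were found in both. All mice were adult males of 10 to 18 weeks on a hybrid background of the 129sv and C57BL/6J strains, and AS mice carried a deletion in the maternal copy of Ube3a, which encodes a ubiquitin ligase that neurons express mainly from that copy. In the acute cohort 6 WT and 6 AS mice received vehicle and 6 of each received 3 mg/kg CORT under the skin, and the hippocampus was collected 3 h later. In the continuous cohort mice carried for 5 days a pellet of cholesterol (vehicle) or of 20 mg CORT, and the left hippocampus was used from 4 WT vehicle, 5 WT CORT, 4 AS vehicle and 5 AS CORT mice. A further WT vehicle library and AS vehicle library were set aside as technical outliers by the study and not used.

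Neuropeptides are cut from larger precursors, packed into dense-core vesicles and released to act on G protein-coupled receptors. In the hippocampus NPY, somatostatin, CCK and VIP are known as markers of inhibitory interneurons, and CCK is also made by pyramidal cells. Dynorphin and enkephalin (from Pdyn and Penk) are known from granule cells of the dentate gyrus and their mossy fibres. CRH and POMC are peptides of the stress axis, and POMC is made mainly in the pituitary and the arcuate nucleus of the hypothalamus. CORT is the main glucocorticoid of mice and acts through the glucocorticoid and mineralocorticoid receptors.

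Between 19049461 and 21052967 reads per library lay on genes in the acute cohort and between 19112929 and 21783009 in the continuous cohort, and a count of 3 corresponded to 0.138 to 0.157 CPM, the read count scaled to library size, in every library. Of 5 genes fixed as targets of the glucocorticoid receptor, Fkbp5 and Tsc22d3 rose with CORT in both cohorts and both genotypes, with log2 fold changes of 0.53 to 1.10. The lowest, Tsc22d3 with continuous CORT in WT mice, did not pass in 5 of the 18 fits that leave out 1 library. Nr3c1, which encodes the receptor itself, fell with acute CORT in WT (-0.48) and AS mice (-0.34), Sgk1 rose with continuous CORT in WT (1.07) and AS mice (1.59), and Per1 passed in none of these comparisons. Ube3a lay at 52.5 to 84.7 CPM in WT and 64.1 to 82.0 CPM in AS libraries of the acute cohort. The counts cover the whole gene and the deletion removes part of it, so they do not check the genotype labels. In the acute cohort 8 libraries, those of all 6 AS CORT mice and of AS vehicle mice 5 and 6, held 2640 to 2850 reads set aside for low alignment quality, against 1877 to 2237 in the other 16, so that among CORT mice genotype and these reads coincide and cannot be told apart. Mice are numbered within their group, and nothing in the labels pairs them across groups.

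The promoters of the 3 genes that passed the test in a comparison below, Npy, Cck and Vip, and of Sst, whose cAMP response element (CRE) is the textbook example, show how the members differ in a short motif that CREB-type factors bind. RefSeq (GRCm38.p6) held 9 promoters for 8 of the 10 members, all but Penk and Crh. Capitals mark the CRE core TGACG or its complement CGTCA and, in Sst, the full palindrome. Counted back from the start of transcription, the windows span positions -80 to -1 for Npy and Cck, -100 to -21 for Vip and -60 to -33 for Sst.

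Npy: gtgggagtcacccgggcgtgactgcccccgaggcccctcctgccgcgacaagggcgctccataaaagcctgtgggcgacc
Cck: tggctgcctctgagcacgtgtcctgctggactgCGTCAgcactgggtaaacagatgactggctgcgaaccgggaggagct
Vip: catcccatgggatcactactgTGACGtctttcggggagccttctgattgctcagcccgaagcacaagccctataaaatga
Sst: cgcctccttggcTGACGTCAgagagaga

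The windows lie at chr6:49822630-49822709 on the plus strand for Npy, chr9:121495695-121495774 on the minus strand for Cck, chr10:5639118-5639197 on the plus strand for Vip and chr16:23890877-23890904 on the minus strand for Sst. Searched on both strands over the 250 bases before the start, the core TGACG was in the promoters of Cck, Vip and Sst, against 17.8% of 32851 promoters, and the full palindrome TGACGTCA was in that of Sst, against 1.55%. The core AGAACA of the glucocorticoid response element was in none of the 9 promoters and in 16.1% of all. These are matches of letters and not sites of binding.

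Levels between genes were compared per kilobase of exon, in WT vehicle mice of the acute cohort. Cck had the highest level with 305 ± 19.2 CPM per kb (SD, n = 6), followed by Sst with 267 ± 31.7 and Npy with 115 ± 8.18. Penk followed with 30.2 ± 5.98, Pdyn with 6.19 ± 2.08, Vip with 2.49 ± 0.288 and Tac2 with 2.27 ± 0.434 CPM per kb. Crh, Pomc and Vipr2 were the lowest, with 0.761 ± 0.139, 0.396 ± 0.0625 and 0.22 ± 0.0642 CPM per kb. The neighbours Cck and Sst, and Vip and Tac2, lay within their summed SDs of each other. In the WT vehicle mice of the continuous cohort Sst (224 ± 45.4, n = 4) lay above Cck (193 ± 31.2), again within their spread, and the order of the other genes was the same. Pomc did not pass the filter on low counts in the acute cohort, so 9 members were tested there and 10 in the continuous cohort.

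**Figure D1:**
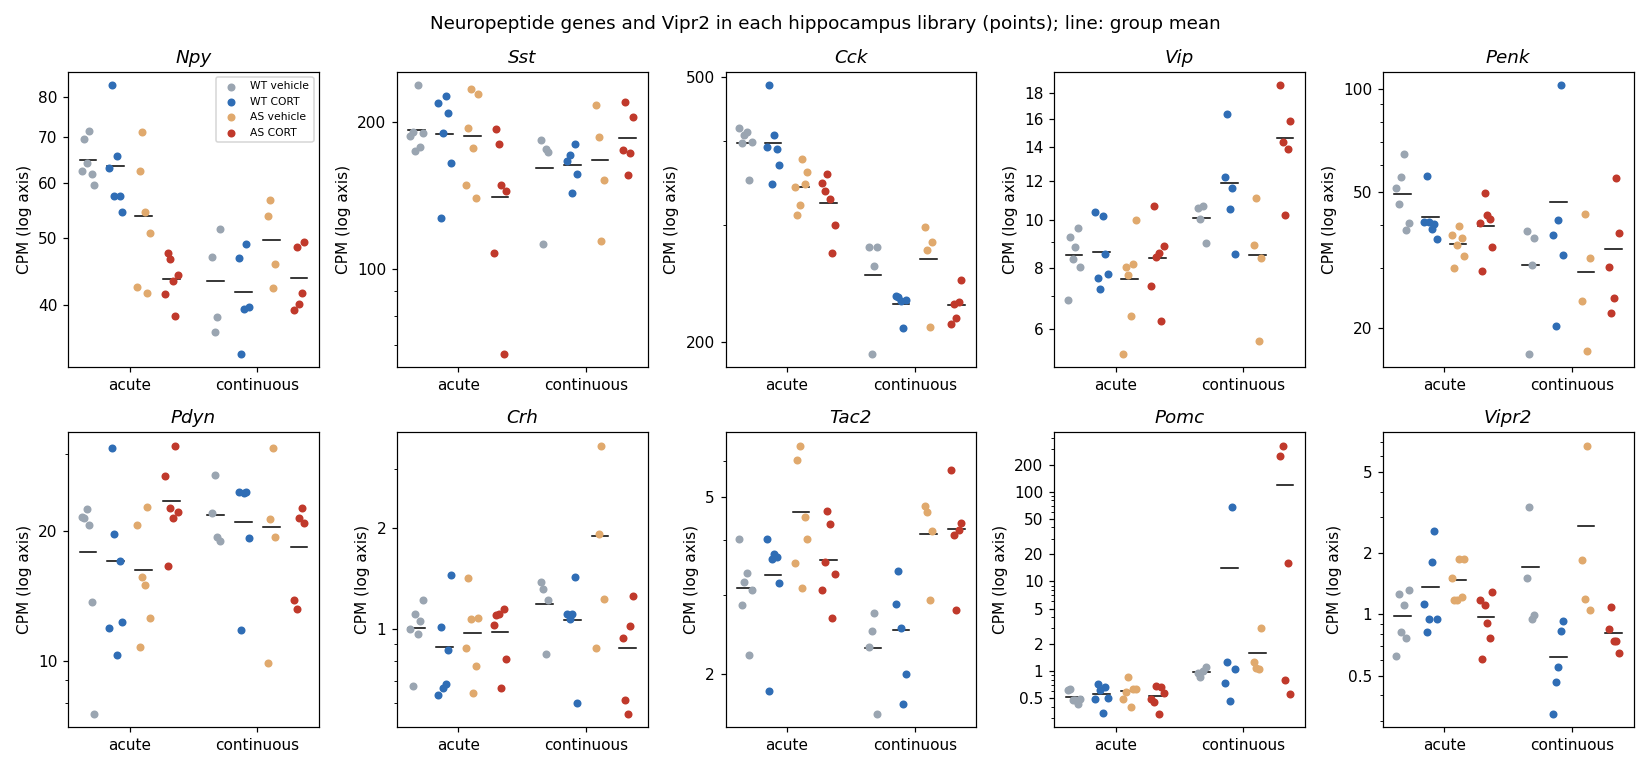
Level of each of the 10 genes in every hippocampus library, as CPM on a log axis, for WT and AS mice with vehicle or CORT in the acute (n = 6 per group) and continuous (n = 4 or 5) cohorts; points are libraries and lines are group means. Npy of acute AS CORT mice lay below all acute WT CORT mice, Vip was highest in continuous AS CORT mice, and Pomc left its narrow range in 4 libraries of continuous CORT mice.

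The effect of acute CORT was tested within each genotype. In WT mice none of the 9 members passed the test, by edgeR, by DESeq2 or by limma-voom, against 1.48% of 14611 genes called by edgeR, 1.94% by DESeq2 and 2.33% by limma-voom. At an unadjusted p under 0.05 there were 0 members by edgeR and by DESeq2 and 1 by limma-voom, against 10.7% of genes by edgeR. In AS mice none passed by edgeR either, against 17.9% of genes. There 4 members had an unadjusted p under 0.05 (33.5% of genes), DESeq2 called 1 (19.9% of genes) and limma-voom 2 (34.6% of genes). The member closest to the threshold was Npy, which encodes neuropeptide Y. Its level was 41.6, 52.8 and 71.1 CPM (lowest, median and highest) in AS vehicle mice and 38.6, 43.8 and 47.5 CPM in AS CORT mice, and the groups overlapped. The log2 fold change was -0.30 (SE 0.109, adjusted p = 0.0536), and DESeq2 gave an adjusted p of 0.0333. Sst (log2 fold change -0.41, adjusted p = 0.108), Vipr2 (-0.59, adjusted p = 0.114) and Pdyn (0.53, adjusted p = 0.131) had values further from 0 with wider errors.

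In mice given vehicle, AS and WT did not differ in any member after adjustment, against 0.157% of genes. Of the 9 members, 5 had an unadjusted p under 0.05 (9.54% of genes), DESeq2 called 1 (0.678% of genes) and limma-voom 0 (0.315% of genes). Penk, the precursor of enkephalins, had 38.6, 48.8 and 64.6 CPM in WT vehicle mice and 30.0, 35.8 and 39.6 CPM in AS vehicle mice. The groups overlapped only at the lowest WT and the highest AS values. Its log2 fold change was -0.49 (SE 0.123, adjusted p = 0.104), and DESeq2 gave an adjusted p of 0.0247. The counts of Penk may be affected by A830012C17Rik, which overlaps it on the opposite strand, since it is not stated whether counting used strand.

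With acute CORT, 2 of the 9 members were lower in AS than in WT mice, Npy and Cck, against 24.9% of genes called, so that the members' share was near that of all genes. At an unadjusted p under 0.05 there were 3 members (37.9% of genes), DESeq2 called 2 (26.7% of genes) and limma-voom 4 (36.5% of genes). Npy (ENSMUSG00000029819, chr6:49822710-49829507 on GRCm38) had 54.6, 60.3 and 83.1 CPM in WT CORT mice, and every AS CORT mouse lay below them at 38.6 to 47.5 CPM. The log2 fold change was -0.54 (SE 0.109, adjusted p = 0.00119). In vehicle mice Npy was 59.6, 63.4 and 71.5 CPM in WT and 41.6, 52.8 and 71.1 CPM in AS mice. There the log2 fold change was -0.27 (SE 0.108, adjusted p = 0.402). In the continuous cohort AS against WT mice gave 0.19 with vehicle (adjusted p = 0.768) and 0.07 with CORT (adjusted p = 0.865). Cck (ENSMUSG00000032532, chr9:121489824-121495694), the precursor of cholecystokinin, had 345, 391 and 486 CPM in WT CORT mice and 271, 332 and 358 CPM in AS CORT mice. Those groups overlapped in the lowest WT and the highest AS mice, and the log2 fold change was -0.30 (SE 0.0735, adjusted p = 0.00481). In vehicle mice Cck was 350, 404 and 419 CPM in WT and 310, 343 and 376 CPM in AS mice, with a log2 fold change of -0.22 (adjusted p = 0.277). Sst, with 127, 199 and 226 CPM in WT CORT and 67.1, 147 and 193 CPM in AS CORT mice, had a log2 fold change of -0.43 (SE 0.181, adjusted p = 0.0791).

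Both calls rested on the comparison in which the libraries with more low-quality reads held every AS CORT mouse and no WT mouse. With a covariate for these libraries the log2 fold change of Npy was -0.23 (adjusted p = 0.938) and that of Cck -0.36 (adjusted p = 0.892, unadjusted p = 0.0108). In that fit 0 of all genes passed. Only the AS vehicle mice, 2 among these libraries and 4 outside them, could estimate the covariate. A call lost in it therefore does not show that the difference was absent. Within the libraries with more low-quality reads, AS CORT against AS vehicle mice 5 and 6 gave -0.09 for Npy (adjusted p = 0.958) and -0.13 for Cck (adjusted p = 0.885). Npy was 41.6 and 50.9 CPM in those 2 vehicle mice. The counts of marker genes of cell types and regions that follow stand beside 24.9% of all genes called in this comparison. Of 15 interneuron markers 2 were lower, among them Slc32a1 (log2 fold change -0.42), and the list summed to 1265 to 1884 CPM in WT CORT and 1344 to 1634 CPM in AS CORT mice. Of 8 CA pyramidal markers 1 was lower, Wfs1 (-0.59), which did not pass in 10 of the 24 fits that leave out 1 library. That list summed to 1164 to 1395 and 859.6 to 1167 CPM. Of 8 thalamus markers 3 were lower, with a list median of -0.61 and sums of 83.4 to 179 and 79.2 to 104 CPM. Among them was Lef1 (-0.72), which the study's hippocampus atlas showed only in endothelial cells, so it does not mark thalamus alone. It passed in each of the 24 fits that leave out 1 library, with -0.69 without WT CORT mouse 5. The other calls of the list moved with that mouse, whose Tcf7l2 was 16.1 CPM against 3.18 to 4.16 CPM in the other WT CORT mice and 2.05 to 3.24 CPM in AS CORT mice. Without it Tcf7l2 moved from -1.19 to -0.57 (adjusted p = 0.00987) and Zic1 from -0.57 to -0.25 (adjusted p = 0.143), while Npy (-0.58, adjusted p = 0.00151) and Cck (-0.32, adjusted p = 0.00647) still passed. Of 6 myelin markers 2 were lower, Mbp and Mag, with a median of -0.54 and sums of 1957 to 5886 and 1688 to 3334 CPM, and neither passed without that mouse (adjusted p = 0.114 and 0.110). Of 7 striatum markers tested 3 were lower and 1 was higher, with a median of -0.27, of 5 blood markers 1 was higher, with a median of -0.28, and 0 of 8 granule cell markers passed, with a median of 0.36. The part of these markers in the difference was not tested, and fewer cells of a type and less RNA per cell cannot be told apart in tissue RNA.

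Whether acute CORT acted differently in AS than in WT mice was tested as an interaction, and no member passed, against 4.49% of genes. The interaction was -0.27 (log2, SE 0.153, adjusted p = 0.279) for Npy and -0.08 (SE 0.104, adjusted p = 0.673) for Cck. Here 2 members had an unadjusted p under 0.05 (23.6% of genes), DESeq2 called 0 of the 6 to which it gave an adjusted p (11.2% of genes), and limma-voom called 2 of 9 (22.9% of genes), Penk and Pdyn. The interaction of Penk was 0.41 (log2, SE 0.173, adjusted p = 0.156), with an adjusted p of 0.0462 by limma-voom and 0.0498 by edgeR without WT CORT mouse 2. That of Pdyn was 0.60 (SE 0.352, adjusted p = 0.301), with an adjusted p of 0.0264 by limma-voom and 0.0780 without that mouse. The share of genes called fell to 0% with GC and length trends removed, to 0.00684% with the covariate for the libraries with more low-quality reads and to 0% with AS vehicle mice 5 and 6 as the AS vehicle group. Vipr2, the receptor of VIP and PACAP, was low in all groups. It had 0.621, 0.963 and 1.32 CPM in WT vehicle, 0.820, 1.04 and 2.55 CPM in WT CORT, 1.17, 1.36 and 1.88 CPM in AS vehicle and 0.602, 1.01 and 1.29 CPM in AS CORT mice. Its interaction was -1.07 (log2, SE 0.370, adjusted p = 0.0861), and -1.18 (adjusted p = 0.0413) without WT CORT mouse 2. That mouse stood apart in several members. Its Sst (127 CPM) and Tac2 (1.83 CPM) were the lowest of its group, and its Npy (83.1 CPM), Cck (486 CPM), Penk (55.7 CPM) and Pdyn (31.0 CPM) the highest. Without it, Sst (log2 fold change -0.52, adjusted p = 0.0294) and Pdyn (0.72, adjusted p = 0.0213) also passed the test between AS and WT mice with CORT, as did 28.7% of genes.

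Pdyn, the precursor of dynorphins, varied widely within groups. It had 7.53, 21.01 and 22.5 CPM in WT vehicle, 10.3, 14.6 and 31.0 CPM in WT CORT, 10.7, 15.3 and 22.7 CPM in AS vehicle and 16.5, 22.3 and 31.5 CPM in AS CORT mice, so that all groups overlapped. These levels moved with the dentate granule cell markers in the same libraries. With acute CORT in AS mice, where Pdyn had a log2 fold change of 0.53 without passing, 2 of the 8 markers were called higher, Dsp (1.01) and Calb1 (0.51), with a list median of 0.46. The share of all genes called was 17.9%, and 1.03% with the covariate for the libraries with more low-quality reads. Calb1 did not pass in 1 of the 24 fits that leave out 1 library (adjusted p = 0.0516). Over the deviations of the 24 acute libraries from their group means, the correlation of Pdyn with the mean of the 8 granule cell markers was 0.977, and over the 18 continuous libraries 0.846. The genes most like Pdyn in the acute cohort were C1ql2 (r = 0.972), Plk5 (r = 0.968) and Il20rb (r = 0.968), with r of 0.782, 0.861 and 0.880 in the continuous cohort. The points share libraries and dissection, and the part of granule cell content in the values of Pdyn was not tested. Sst moved most closely with Plcl2 (r = 0.927), Galnt9 (r = 0.917) and Rab3b (r = 0.908), and in the continuous cohort with r of 0.916, 0.927 and 0.789. For Npy the closest genes were Rpp25 (r = 0.809), Eefsec (r = 0.802) and Gm6969 (r = 0.793), whose r in the continuous cohort was 0.228, 0.187 and -0.234.

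**Figure D2:**
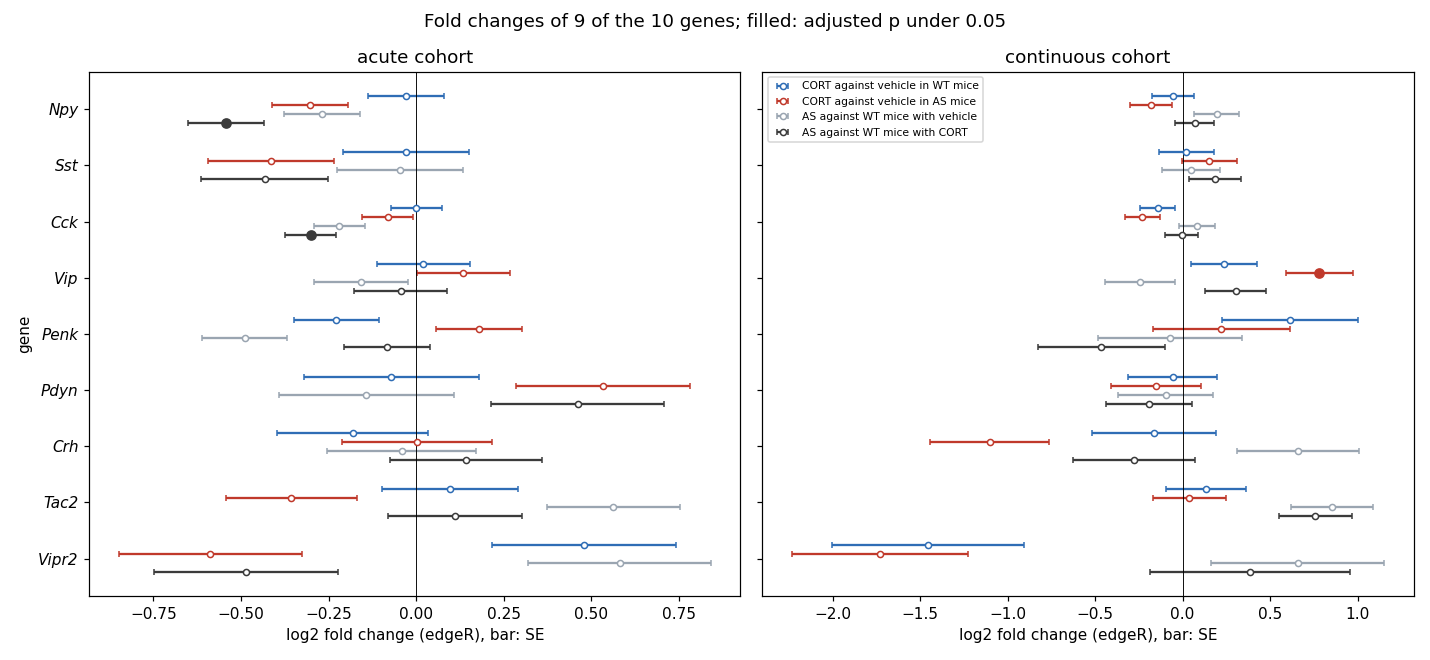
Log2 fold changes of 9 members with their SE in 4 comparisons of each cohort, from the edgeR fit of all 4 groups; filled points passed an adjusted p of 0.05. The filled points are Npy (-0.54) and Cck (-0.30) for AS against WT mice with acute CORT and Vip (0.78) for continuous CORT in AS mice; Pomc, measured on a far wider scale, is not drawn.

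Continuous CORT was tested in the same way. In WT mice none of the 10 members passed, against 2.92% of 14949 genes, with 1 at an unadjusted p under 0.05 (15.6% of genes) and 0 called by DESeq2 (4.07% of genes) and by limma-voom (4.23% of genes). In AS mice 1 member passed, Vip, against 3.77% of genes. There 5 members had an unadjusted p under 0.05 (15.2% of genes), DESeq2 called 3 (5.1% of genes) and limma-voom 1 (5.83% of genes). Vip (ENSMUSG00000019772, chr10:5639218-5647617), the precursor of vasoactive intestinal peptide, had 8.89, 11.04, 5.68 and 8.36 CPM in the 4 AS vehicle mice and 18.7, 14.4, 10.2, 13.9 and 15.8 CPM in the 5 AS CORT mice. The groups overlapped in 1 mouse on each side, and the log2 fold change was 0.78 (SE 0.190, adjusted p = 0.0237). In WT mice Vip was 10.6, 10.1, 10.6 and 8.98 CPM with vehicle and 12.2, 16.4, 10.5, 11.6 and 8.53 CPM with CORT, with a log2 fold change of 0.24 (adjusted p = 0.625). The interaction of genotype and continuous CORT for Vip was 0.55 (SE 0.266, adjusted p = 1.0). No member and 0% of genes passed this test by edgeR, DESeq2 or limma-voom. At an unadjusted p under 0.05 there were 0 members by edgeR and by limma-voom and 1 by DESeq2, against 3.75% of genes by edgeR.

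The call of Vip was lost when any of 4 mice was left out, AS CORT mouse 1 (adjusted p = 0.0689), AS CORT mouse 5 (adjusted p = 0.0531), AS vehicle mouse 4 (adjusted p = 0.0805) or AS vehicle mouse 5 (adjusted p = 0.0694), with log2 fold changes of 0.63 to 0.77. It was also lost with the 2 left-out libraries in the fit (0.98, adjusted p = 0.137), where Vipr2 passed in its place (-4.02, adjusted p = 0.0333), with 58.4 CPM in the left-out AS vehicle library. AS vehicle mouse 4, with the lowest Vip, was 1 of 2 libraries of this cohort with a high level of Tcf7l2, a marker of thalamus, at 35.6 CPM, and WT vehicle mouse 2 was the other at 19.6 CPM, against 1.54 to 3.88 CPM in the other 16 libraries. Without both, the log2 fold change of Vip in AS mice was 0.63 (adjusted p = 0.0784). The part of thalamic tissue in the result was not tested.

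Without those 2 libraries, a change chosen after the data were seen, Cck was lower with continuous CORT in both genotypes. Cck was 277, 192, 260 and 277 CPM in WT vehicle mice 1, 2, 3 and 5 and 235, 234, 230, 210 and 231 CPM in WT CORT mice. It was 298, 275, 211 and 282 CPM in AS vehicle mice 1, 3, 4 and 5 and 213, 228, 217, 230 and 248 CPM in AS CORT mice. The lowest vehicle value of each genotype was that of the mouse with high Tcf7l2. With all libraries the log2 fold change was -0.14 for WT (adjusted p = 0.551) and -0.23 for AS mice (adjusted p = 0.262). Without the pair it was -0.25 for WT (adjusted p = 0.0135) and -0.33 for AS mice (adjusted p = 0.00156), where 3.56% and 3.69% of genes passed. Because the pair held the lowest Cck of the vehicle groups, these p-values are no support for a fall.

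Values of Vipr2 lay lower with continuous CORT without passing the test. It had 1.52, 3.35, 0.949 and 0.993 CPM in WT vehicle mice and 0.324 to 0.927 CPM in WT CORT mice, which did not overlap. In AS mice it had 1.85, 1.19, 6.73 and 1.05 CPM with vehicle and 0.649 to 1.09 CPM with CORT, which overlapped. The log2 fold change was -1.46 in WT (SE 0.547, adjusted p = 0.182) and -1.73 in AS mice (SE 0.504, adjusted p = 0.0655), and DESeq2 gave an adjusted p of 0.0162 in AS mice. The highest values, 3.35 and 6.73 CPM, belonged to the 2 mice with high Tcf7l2. Without them the log2 fold change was -0.89 for WT (adjusted p = 0.126) and -0.74 for AS mice (adjusted p = 0.203). Gm20658 overlaps Vipr2 on the opposite strand.

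Pomc, the precursor of ACTH and beta-endorphin, was at 0.334 to 0.855 CPM in all 24 acute libraries and at 0.461 to 2.9998 CPM in 14 of the 18 continuous libraries. It was far higher in 4 libraries, all of CORT mice, at 249, 328 and 15.9 CPM in AS CORT mice 1, 2 and 4 and 67.6 CPM in WT CORT mouse 4. The other AS CORT mice had 0.790 and 0.556 CPM. The log2 fold change of continuous CORT was 6.21 in AS (SE 1.76, adjusted p = 0.0574) and 3.84 in WT mice (SE 1.99, adjusted p = 0.374), and DESeq2 called the former (adjusted p = 0.000848). Gh and Prl, hormone genes of the anterior pituitary, had their highest values in the same libraries and in AS vehicle mouse 5, while only 1 of the 8 pituitary markers passed the filter and 0 were called. Gh, growth hormone, was at 20.1, 5.48 and 76.2 CPM in AS CORT mice 1, 2 and 4, at 94.8 CPM in WT CORT mouse 4 and at 7.27 CPM in AS vehicle mouse 5, where Pomc was 2.9998 CPM. In the other 13 libraries Gh was at most 1.30 CPM. Summed over the 8 pituitary markers, levels ranged from 0.0459 to 1.04 CPM in WT vehicle, from 0 to 104 CPM in WT CORT, from 0 to 8.95 CPM in AS vehicle and from 0 to 87.0 CPM in AS CORT mice, and Lhb was at 0 in every library. Without the 5 libraries with over 5 CPM of Gh, also chosen after the data were seen, the log2 fold change of Pomc was -0.74 in AS mice (adjusted p = 0.648) and -0.17 in WT mice (adjusted p = 0.865). That fit keeps 2 AS CORT mice, and Vip did not pass in it (0.61, adjusted p = 0.597).

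**Figure D3:**
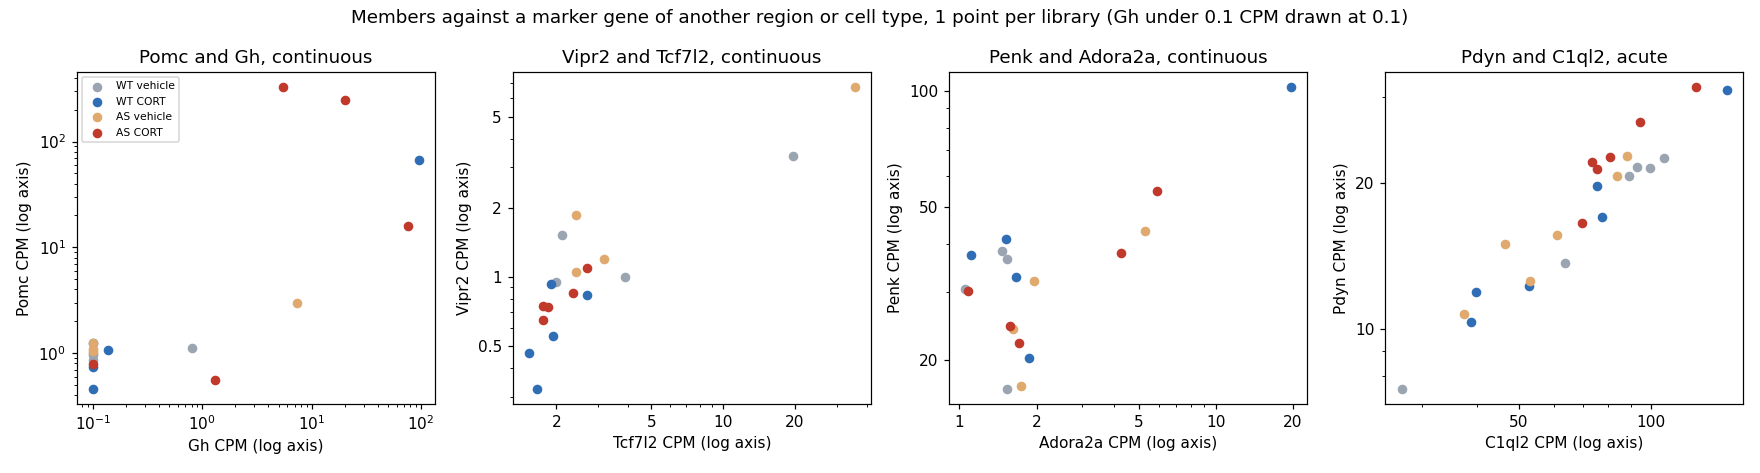
A member against a marker gene of another region or cell type in each library, on log axes in CPM, with Pomc and Gh, Vipr2 and Tcf7l2 and Penk and Adora2a in the continuous cohort and Pdyn and C1ql2 in the acute cohort. The 4 libraries with Pomc of 15.9 to 328 CPM all had Gh above 5 CPM, and the 2 highest values of Vipr2, 3.35 and 6.73 CPM, had the 2 highest values of Tcf7l2.

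Penk in the continuous cohort was 38.5, 16.8, 30.6 and 36.6 CPM in WT vehicle, 37.4, 20.3, 41.3, 102 and 32.8 CPM in WT CORT, 24.04, 43.2, 17.1 and 32.1 CPM in AS vehicle and 30.2, 22.2, 24.5, 54.8 and 37.9 CPM in AS CORT mice. The 2 highest values belonged to WT CORT mouse 4 and AS CORT mouse 4, which also had the highest Adora2a, an adenosine receptor gene and marker of striatum, at 19.7 and 5.87 CPM. No comparison of Penk passed in this cohort. Crh, the precursor of corticotropin-releasing hormone, was 0.880, 1.92, 3.53 and 1.23 CPM in AS vehicle and 0.940, 0.614, 0.558, 1.02 and 1.25 CPM in AS CORT mice. The log2 fold change was -1.10 (SE 0.342, adjusted p = 0.0879), and the highest value was again that of the AS vehicle mouse with high Tcf7l2. Without the 2 libraries with high Tcf7l2 it was -0.61 (adjusted p = 0.361), and without AS vehicle mouse 1 it was -1.34 (adjusted p = 0.0217).

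AS and WT mice were also compared within the vehicle and the CORT groups of the continuous cohort, where no member passed the test, against 0.0134% and 0.0401% of genes. At an unadjusted p under 0.05 there were 1 and 2 members, against 7.34% and 10.2% of genes. DESeq2 called 0 members in both, against 0.12% and 0.321% of genes, and limma-voom 0, against 0.0468% and 0.174%. Tac2, the precursor of neurokinin B, gave the smallest p among members in both. It had 2.30, 2.49, 2.74 and 1.62 CPM in WT vehicle mice and 4.77, 4.63, 2.93 and 4.18 CPM in AS vehicle mice, which did not overlap. With CORT it had 2.87, 3.40, 2.54, 1.71 and 1.99 CPM in WT and 5.73, 4.11, 2.79, 4.21 and 4.36 CPM in AS mice, which overlapped in 1 AS mouse. The log2 fold change was 0.85 (SE 0.234, adjusted p = 0.374) with vehicle and 0.76 (SE 0.207, adjusted p = 0.258) with CORT. In the acute cohort it was 0.56 with vehicle (SE 0.189, adjusted p = 0.277) and 0.11 with CORT (adjusted p = 0.703).

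The CORT effects of both cohorts were compared in a joint fit of all 8 groups, in which 9 members and 14419 genes were tested. No member passed in WT mice, against 0.52% of genes, or in AS mice, against 2.59%, while 2 and 3 members had an unadjusted p under 0.05, against 9.86% and 18.8% of genes. The continuous effect minus the acute effect was -1.92 for Vipr2 in WT mice (SE 0.585, adjusted p = 0.147) and 0.66 for Vip in AS mice (SE 0.232, adjusted p = 0.114). Other tools were not run on this fit, and the cohorts differ in route and dose as well as in time.

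Receptors of these peptides and genes that process them were described from lists. Of 17 receptor genes tested in the acute cohort, acute CORT in AS mice raised 3, among them Mc4r (log2 fold change 0.50), and lowered 3, Cckbr (-0.94), Oprd1 (-0.49) and Crhr1 (-0.46), with a list median of -0.16 against 0.01 for all genes. In WT mice 0 of 17 passed, where 1.48% of all genes did, and the list median was -0.10. For the interaction the list median was -0.03. Of 18 processing and vesicle genes, 2 were called higher in AS mice with acute CORT, Scg2 (0.36) and Ctsl (0.26), and 2 lower, Vgf (-0.42), a neuropeptide precursor that neuronal activity regulates, and Furin (-0.21). Of 9 other precursor genes Nppc (0.68) was called higher. These counts stand against 17.9% of all genes called in that comparison. The share was 1.03% with the covariate for the libraries with more low-quality reads and 0.89% with AS vehicle mice 5 and 6 as the AS vehicle group, and in both fits 0 of these receptor, processing and precursor genes passed. Scg2 was also lost in 8 of the 24 fits that leave out 1 library, and the other receptor, processing and precursor genes named for this comparison in none. The raised receptor genes not named here were lost in 7 and 8 of these fits. Fkbp5 (1.11 with the covariate) and Tsc22d3 (1.01) passed in both, and Nr3c1 (-0.36, adjusted p = 0.0537) in neither. Between AS and WT mice with acute CORT, 1 of 17 receptor genes was higher, Adcyap1r1 (0.20), and 3 were lower, Cckbr (-0.55), Crhr1 (-0.38) and Npy2r (-0.29), and of the 9 other precursors Pnoc (-0.56) was lower. Of 18 processing genes 2 were higher, Scg2 (0.56) and Scg3 (0.20), and 3 lower, among them Vgf (-0.67) and Furin (-0.27), against 24.9% of all genes. None of these passed in the fit with the covariate, which only AS vehicle mice could estimate, and 0% of genes did. Of the 24 fits that leave out 1 library, Npy2r did not pass in 15, Adcyap1r1 and Scg3 in 8 each and Cckbr in 3, while Crhr1, Pnoc, Scg2, Vgf and Furin passed in all. For the interaction 1 receptor gene, Cckbr (-0.87), and 3 processing genes, Vgf (-0.55), Furin (-0.30) and Ctsl (0.34), were called, against 4.49% of all genes. All 4 calls were lost with GC and length trends removed, with the covariate and with AS vehicle mice 5 and 6 as the AS vehicle group, and each was lost in 13 to 17 of the 24 fits that leave out 1 library. With continuous CORT none of 18 receptor genes and none of 11 other precursors passed in either genotype, while 1 of 17 processing genes, Scg3 (-0.24), fell in WT mice, against 2.92% of all genes, a call lost in 2 of the 18 fits that leave out 1 library. Among acute CORT mice genotype and the reads of low alignment quality cannot be told apart.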

How the data were processed

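Per the labels, mRNA was enriched from total RNA of hippocampus and liver and sequenced as stranded paired-end libraries. The authors processed reads with FastQC, MultiQC, STAR and HTSeq on mm10 (submitters' processing notes) and deposited raw counts per gene. The annotation release and use of strand in counting are not given in the sources used here. IDs were matched to GENCODE M21. Genes entered the tests when 3 or more libraries of any 1 group had over 20 counts after median-of-ratios scaling. Groups were compared by edgeR 4.0.16 with its quasi-likelihood test (R 4.3.3, TMM, 1 coefficient per group), adjusted by Benjamini-Hochberg over all genes tested, with 0.05 as the threshold. CPM are TMM-normalized. Alternatives used DESeq2 1.42.0 and limma 3.58.1, other scaling, no filter, GC and length offsets and each library left out. Mice are separate animals. Scripts were tested on simulated data. The genes named are the 10 members, checks of CORT and genotype, at most 4 genes per list with the smallest adjusted p, and the 3 genes most correlated with a member. The members and lists were chosen with earlier results of these data known. A floor of 3 counts covers counting error only. Replicate numbers follow accession order. Liver was read only for the presence of the members.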

Additional observations from a re-analysis of the deposited data

Results flagged for a closer look

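Of 80 groups of 4 to 6 libraries (10 genes in 8 groups), 10 held a library far from the others by Dixon's test, which chance gives in about 1 of 20 groups. In the acute cohort these were Sst in WT vehicle mouse 4 (237 CPM, next 190), Cck in WT vehicle mouse 5 (350 CPM, next 398), and Penk (55.7 CPM, next 40.8) and Tac2 (1.83 CPM, next 3.20) in WT CORT mouse 2. In the continuous cohort they were Sst in WT vehicle mouse 2 (112 CPM, next 173), Cck (210 CPM, next 230), Penk (102 CPM, next 41.3) and Pomc (67.6 CPM, next 1.26) in WT CORT mouse 4, Pomc in AS vehicle mouse 5 (2.9998 CPM, next 1.25) and Vipr2 in AS vehicle mouse 4 (6.73 CPM, next 1.85).

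The 2 hippocampus libraries left out by the study held members above every vehicle library used of the same, continuous cohort. Their CPM are scaled to the library total only, while those of the used libraries are TMM-normalized, so the scales are not the same. The left-out WT vehicle library had 1157 CPM of Penk (highest used 43.2), 107 CPM of Pdyn (31.0) and 78.3 CPM of Npy (56.8), beside 333 CPM of Adora2a and 203 CPM of Drd2, markers of striatum. The left-out AS vehicle library had 58.4 CPM of Vipr2 (highest used 6.73) and 55.0 CPM of Penk (43.2, and 64.6 in the acute cohort), beside 931 CPM of Prkcd, 297 CPM of Slc17a6 and 151 CPM of Tcf7l2, markers of thalamus. C1ql2, a granule cell marker, was 2.17 and 3.72 CPM in these libraries. In the 20 liver libraries no member had more than 3 counts.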

How the results depend on the processing

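Every change is in the number of members past the threshold, with the share of all genes that passed in parentheses. For acute CORT in AS mice (0 by the main test, 17.9%) it was 1 with DESeq2 (19.9%), with its size factors in edgeR (17.7%), with GC and length offsets (16%), with only the 2 groups fitted (18.9%) and without WT CORT mouse 2 (21.6%), and 2 with limma-voom (34.6%). For AS against WT mice with vehicle (0, 0.157%) it was 1 with DESeq2 (0.678%) and without that mouse (0.349%). For AS against WT mice with acute CORT (2, 24.9%) it was 4 with limma-voom (36.5%) and without that mouse (28.7%) and 0 with the covariate for the libraries with more low-quality reads (0%). For the acute interaction (0, 4.49%) it was 2 with limma-voom (22.9%) and without that mouse (9.27%). For continuous CORT in AS mice (1, 3.77%) it was 3 with DESeq2 (5.1%) and with no filter (1.74%), and 0 with an adjusted p under 0.01 (1.82%) and without the libraries high in Gh (0.622%). For continuous CORT in WT mice (0, 2.92%) it was 1 without the libraries high in Tcf7l2 (3.56%). For the difference between cohorts in AS mice (0, 2.59%) it was 1 with the 2 left-out libraries kept (1.25%). The cause of these changes was not tested.

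Leaving out 1 library at a time gave 0 to 1 members for acute CORT in AS mice and for AS against WT mice with vehicle, 2 to 4 for AS against WT mice with acute CORT, 0 to 2 for the acute interaction, 0 to 1 for continuous CORT in WT mice, 0 to 2 for continuous CORT in AS mice and 0 to 1 for both differences between cohorts. No called member changed direction in the 3816 alternative values of single members, and 172 values that were called in neither fit had the other sign. No paired analysis was possible because replicate numbers follow only accession order. Genes near 1 CPM, among them Crh, Vipr2 and acute Pomc, rest on 7 to 53 reads in the acute libraries.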

Other observations

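Within groups, members moved together in a few pairs, given as descriptions over libraries that share dissection. Sst and Vip had r of 0.665 over 24 acute and 0.510 over 18 continuous libraries, and Penk and Pdyn 0.687 and 0.270. Vip and Tac2 had 0.295 and 0.821 and Sst and Cck 0.163 and 0.807, while Cck and Vipr2 had 0.130 and -0.794. The mean of the CA pyramidal markers moved with Cck at r of 0.877 in the continuous and 0.490 in the acute cohort, and that of the thalamus markers moved with Vipr2 at 0.763 and 0.479.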
